A study of Saccharomyces cerevisiae with 36 samples.

Results

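Transcript ratios after 90 min of congo red were set against those after 15 min in budding yeast, Saccharomyces cerevisiae. The 8 arrays were chosen by the drug and time in their labels, 4 at 90 min and 4 at 15 min, of 36 arrays in all. Each of the 8 is a 2-colour array that carries RNA of congo red-treated cells and RNA of untreated cells of the same time point. The 90 min arrays hold 0.02 mg/ml and 0.1 mg/ml, with 2 replicates of each dose, and the 15 min arrays hold the same doses and replicates. Treated RNA was labelled with Cy5 in replicate 1 and with Cy3 in replicate 2, so dye orientation and replicate number are 1 factor. The sources used here name no strain and do not say whether replicates were separate cultures or whether untreated cultures were shared. P-values therefore measure the spread between arrays only, taken over all 36 arrays of the series. The other arrays of the series hold congo red at 5 min, calcofluor white and caffeine. The comparison asks which transcripts moved in the later part of the exposure.

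Congo red is a dye that binds the glucan and chitin fibres of the yeast wall and disturbs their assembly. Wall damage is sensed at the plasma membrane and passed through Rho1, protein kinase C and a MAP kinase cascade ending in Slt2, which is called the cell wall integrity pathway. Its transcription factor Rlm1 drives genes for wall mannoproteins, glucan and chitin synthases and wall proteases, and calcineurin signalling feeds into some of the same genes.

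Every value below is a log2 ratio of treated over untreated cells, or a difference between such ratios, and that direction was assumed because the files do not state it. With every ratio turned, the sizes and p-values would stay and each higher call would be a lower one. Values were centred on the median of each array, so a change is relative to the typical gene. Errors are SD over the 4 arrays of a time, which spans both doses and both dye orientations, or SE of a difference from limma, a linear model fitted to all 36 arrays with a term for dye. A gene passed at an adjusted p (Benjamini-Hochberg) under 0.05. Precision is limited by how few arrays there are, with a median SE of 0.166 for a difference.

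Of 5713 genes on the array, 5481 to 5666 had a value on each of the 8 arrays. The spread across genes (scaled median absolute deviation) was 0.208 to 0.263 on the 15 min arrays and 0.272 to 0.391 on the 90 min arrays. Every 90 min array was thus wider than every 15 min array, and arrays were not scaled to the same spread in the main settings. Across genes, the replicates of opposite dye correlated at −0.115 and −0.124 at 90 min and at −0.42 and −0.505 at 15 min (0.02 and 0.1 mg/ml in each case). All 12 pairs of arrays with the same dye orientation correlated positively (lowest r 0.366). Differences were therefore taken between arrays of the same dose and orientation. Dye and replicate cannot be told apart here. The description of the 0.02 mg/ml, 90 min array of replicate 1 gives 0.1 mg/ml, while its treated channel gives 0.02 mg/ml and its title has the same dose code as the other 0.02 mg/ml arrays, which was followed.

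After 90 min of congo red, 3 genes of wall mannoproteins, PIR3, CWP1 and PST1, and the glucan synthase gene FKS1 stood above their 15 min level over both doses. Of 5303 genes tested, 16 were higher at 90 than at 15 min and 0 were lower in limma (0.302% of genes called). At an unadjusted p under 0.05 there were 307 genes, 192 higher and 115 lower. All 16 genes were higher in 4 of 4 matched differences, beside 12.8% of all genes tested. In 13 every 90 min array lay above every 15 min array, beside 2.38% of all genes tested. The 16 were called on these same values, so this describes them and adds no support. The other 12 genes encode, among other things, a lipid flippase, a protein phosphatase and enzymes of sterol and redox metabolism.

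The count of 16 rested partly on single arrays and on the treatment of spread. It was 9 (8 higher, 1 lower) without the 0.1 mg/ml, 90 min array of replicate 1, and 9 (7 higher, 2 lower) without the 0.02 mg/ml, 90 min array of replicate 2. Without the array with the disputed dose it was 10 (9 higher, 1 lower), and with arrays scaled to the same spread it was 33 (27 higher, 6 lower). Without the replicate block it was 6, namely PIR3, CWP1, DNF2, CRG1, PST1 and YMR315W, and the other 10 genes did not pass. The genes PIR3, CWP1, CRG1, PST1, YMR315W and YNL058C passed without each of the 8 arrays in turn. DNF2 and SRL3 passed in 7 of these 8 fits, FKS1 in 5, ERG9 in 3, SKG1 in 2, PRX1 and TFC4 in 1 each, and FPR2, MCH5 and PPZ1 in 0 of 8.

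**Figure D1:**
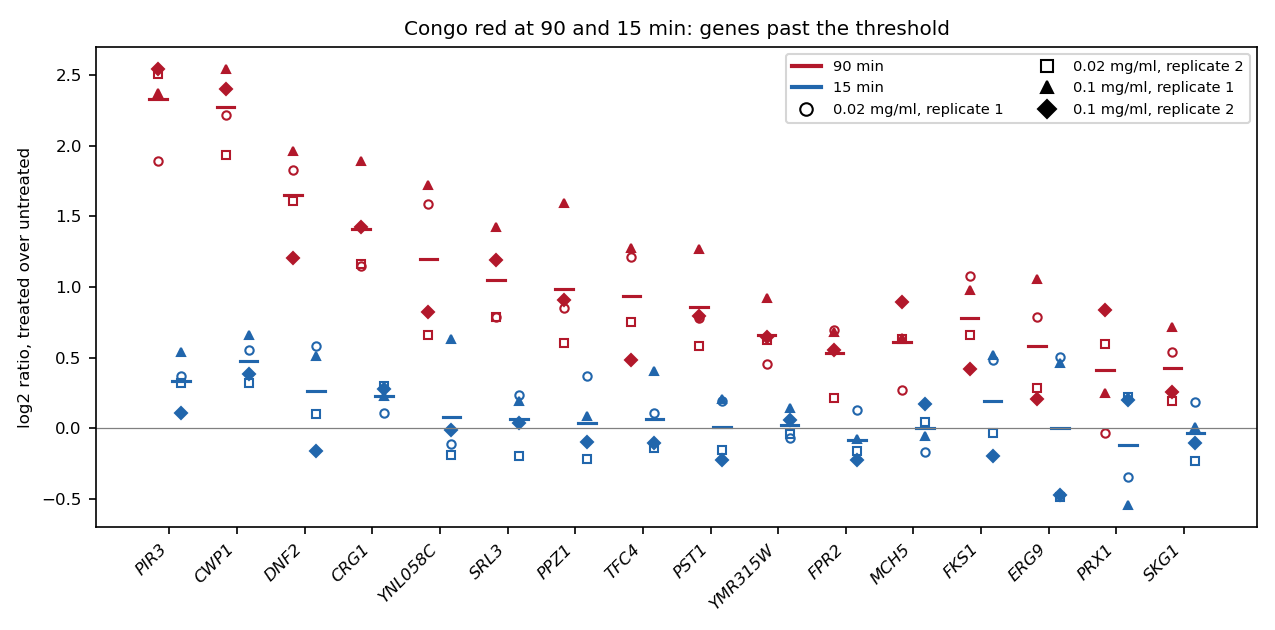
Log2 ratios of treated over untreated cells (vertical axis) for the 16 genes past the threshold, with 90 min arrays in red left of 15 min arrays in blue. Symbols mark dose and replicate and bars the mean of 4 arrays; only FKS1, ERG9 and PRX1 have 90 min values that reach into the 15 min range.

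PIR3 (YKL163W), an O-glycosylated mannoprotein bound to wall glucan, had the largest difference. It stood at 1.89 and 2.51 at 0.02 mg/ml and at 2.37 and 2.54 at 0.1 mg/ml on the 90 min arrays (replicates 1 and 2), against 0.37 and 0.32 at 0.02 mg/ml and 0.54 and 0.11 at 0.1 mg/ml on the 15 min arrays. The lowest 90 min array lay far above the highest 15 min array. The mean was 2.33 ± 0.30 at 90 min and 0.33 ± 0.18 at 15 min (SD, n = 4 each). The difference was 1.99 ± 0.22 (SE; adjusted p = 5.58e-05), a 3.99-fold ratio with a 95% interval of 2.91 to 5.47.

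CWP1 (YKL096W), a mannoprotein attached to the wall through a GPI anchor, had the second largest difference. Its 90 min values were 2.22 and 1.93 at 0.02 mg/ml and 2.54 and 2.40 at 0.1 mg/ml, against 15 min values of 0.55 and 0.32 at 0.02 mg/ml and of 0.66 and 0.38 at 0.1 mg/ml. No array of 1 time came near the range of the other. The difference was 1.80 ± 0.25 (adjusted p = 0.000593), or 3.47-fold (2.42 to 4.97).

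PST1 (YDR055W), a GPI protein known to be made in response to wall damage, was at 0.78 and 0.58 at 0.02 mg/ml and 1.27 and 0.80 at 0.1 mg/ml after 90 min, against 0.20 and −0.15, and 0.21 and −0.22, after 15 min. The 15 min values scattered around 0 with the sign of the dye orientation, and all 4 of the 90 min values were above them. The difference was 0.85 ± 0.12 (adjusted p = 0.000595).

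FKS1 (YLR342W), the main catalytic subunit of the synthase that makes wall glucan, had 1.08 and 0.66 at 0.02 mg/ml and 0.98 and 0.42 at 0.1 mg/ml at 90 min, and 0.48 and −0.03, and 0.52 and −0.20, at 15 min. The ranges of the 2 times overlapped, and within each time and dose replicate 1 was higher than replicate 2. Within an orientation and dose the 4 matched differences were 0.59, 0.69, 0.46 and 0.61. The difference was 0.59 ± 0.11 (adjusted p = 0.0117).

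The outputs of the cell wall integrity pathway were described as a list. Of 21 such genes on the array 18 were tested, 4 of them were higher (PIR3, CWP1, PST1 and FKS1), 0 were lower and 14 did not pass. Their median difference was 0.58, beside 0.00156 for all genes tested. In 17 of 18 the difference was positive and in 13 it was positive in 4 of 4 matched differences, and 12 had an unadjusted p under 0.05. These are 94.4%, 72.2% and 66.7% of the list, against 50.3%, 12.8% and 3.62% of all genes tested, of which 0.302% were called. The median member stood at 0.75 at 90 min and at 0.18 at 15 min. SLT2, CIS3 and CRH1 had values on too few arrays to be tested.

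Several wall genes had large differences that did not pass the threshold. SED1, a major GPI wall protein, averaged 1.36 at 90 min and 0.29 at 15 min (difference 1.07 ± 0.29, adjusted p = 0.155). HSP150, a wall protein of the same family as PIR3, averaged 1.30 and 0.23 at 90 and 15 min (1.07 ± 0.45, adjusted p = 0.665). PIR1, also of that family, had 90 min values of 1.19, 1.26, 1.26 and 1.01 and 15 min values of 0.33, 0.13, 0.63 and 0.04 (0.89 ± 0.23, adjusted p = 0.131). For PIR1 the ranges of the 2 times did not overlap. NCW2, a further GPI wall protein, averaged 1.09 at 90 min and 0.28 at 15 min (0.81 ± 0.27, adjusted p = 0.375). At the other end, SPI1 stood at 0.05 at 90 min and 0.24 at 15 min and was the only output gene with a negative difference.

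Of 33 PIR and GPI wall protein genes tested, 3 were higher (PIR3, CWP1 and PST1), 0 were lower and 30 did not pass, with a median difference of 0.18. The difference was positive in 26 of 33 (78.8%, against 50.3% of all genes tested) and positive in 4 of 4 matched differences in 12 (36.4%, against 12.8%). An unadjusted p under 0.05 with a positive difference was found for 10 (30.3%, against 3.62%). This list and the outputs share members, and the difference between the lists was not tested. TIR2, a wall protein of cold and low-oxygen growth, had a difference of 0.59 ± 0.19 and FIT3, which retains iron carriers in the wall, 0.52 ± 0.20. Neither passed. Negative differences, also short of the threshold, were found for TIP1 (−0.37 ± 0.20), DSE2, a protein of daughter cell separation (−0.28 ± 0.12), and ECM33 (−0.20 ± 0.12).

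In glucan and chitin synthesis, 1 of 24 genes tested was higher (FKS1), 0 were lower and 23 did not pass. The median difference was 0.16, and 8 genes (33.3%, against 3.62% of all genes tested) had a positive difference at an unadjusted p under 0.05. GSC2, the alternative glucan synthase subunit, had 0.60, 0.75, 0.86 and 0.66 at 90 min and −0.06, 0.30, 0.11 and 0.20 at 15 min. Its arrays did not overlap between times, but its difference of 0.58 ± 0.24 did not pass (adjusted p = 0.665). KRE6, required for branched wall glucan, had a difference of 0.53 ± 0.13 (adjusted p = 0.121) and KRE2, a mannosyltransferase of wall proteins, 0.49 ± 0.11 (adjusted p = 0.0872). For chitin, CHS7, which brings the main synthase out of the endoplasmic reticulum, had 0.57 ± 0.21, and SKT5, the activator of that synthase, 0.35 ± 0.11. The synthase gene CHS3 itself had 0.34 ± 0.20, and CHS1 and CHS2 had −0.01 ± 0.16 and −0.04 ± 0.12. None of these 7 genes passed.

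Enzymes that remodel the wall and the signalling members of the pathway had no gene past the threshold. Of 26 remodelling enzymes tested, 0 were higher and 0 lower, with a median of −0.01. The largest differences among them were those of the aspartyl protease gene YPS3 (0.49 ± 0.15) and the glucanase gene EXG1 (0.40 ± 0.13). The glucan-modifying enzyme gene GAS1 had 0.04 ± 0.17 and the chitinase gene CTS1 −0.06 ± 0.10. Of 23 sensors, kinases and regulators, 0 were called and the median was 0.07. KDX1, a relative of the Slt2 kinase, had 1.05 and 0.46 at 0.02 mg/ml and 1.57 and 0.57 at 0.1 mg/ml after 90 min, against 0.24 and −0.11, and 0.32 and −0.16, after 15 min. Its difference of 0.84 ± 0.25 did not pass (adjusted p = 0.272). The MAP kinase kinase genes MKK1 and MKK2 had 0.52 ± 0.13 (adjusted p = 0.131) and 0.37 ± 0.15 (adjusted p = 0.618). The transcription factor gene RLM1 had 0.13 ± 0.13, the sensor gene MID2 0.27 ± 0.16 and PKC1 −0.31 ± 0.19.

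**Figure D2:**
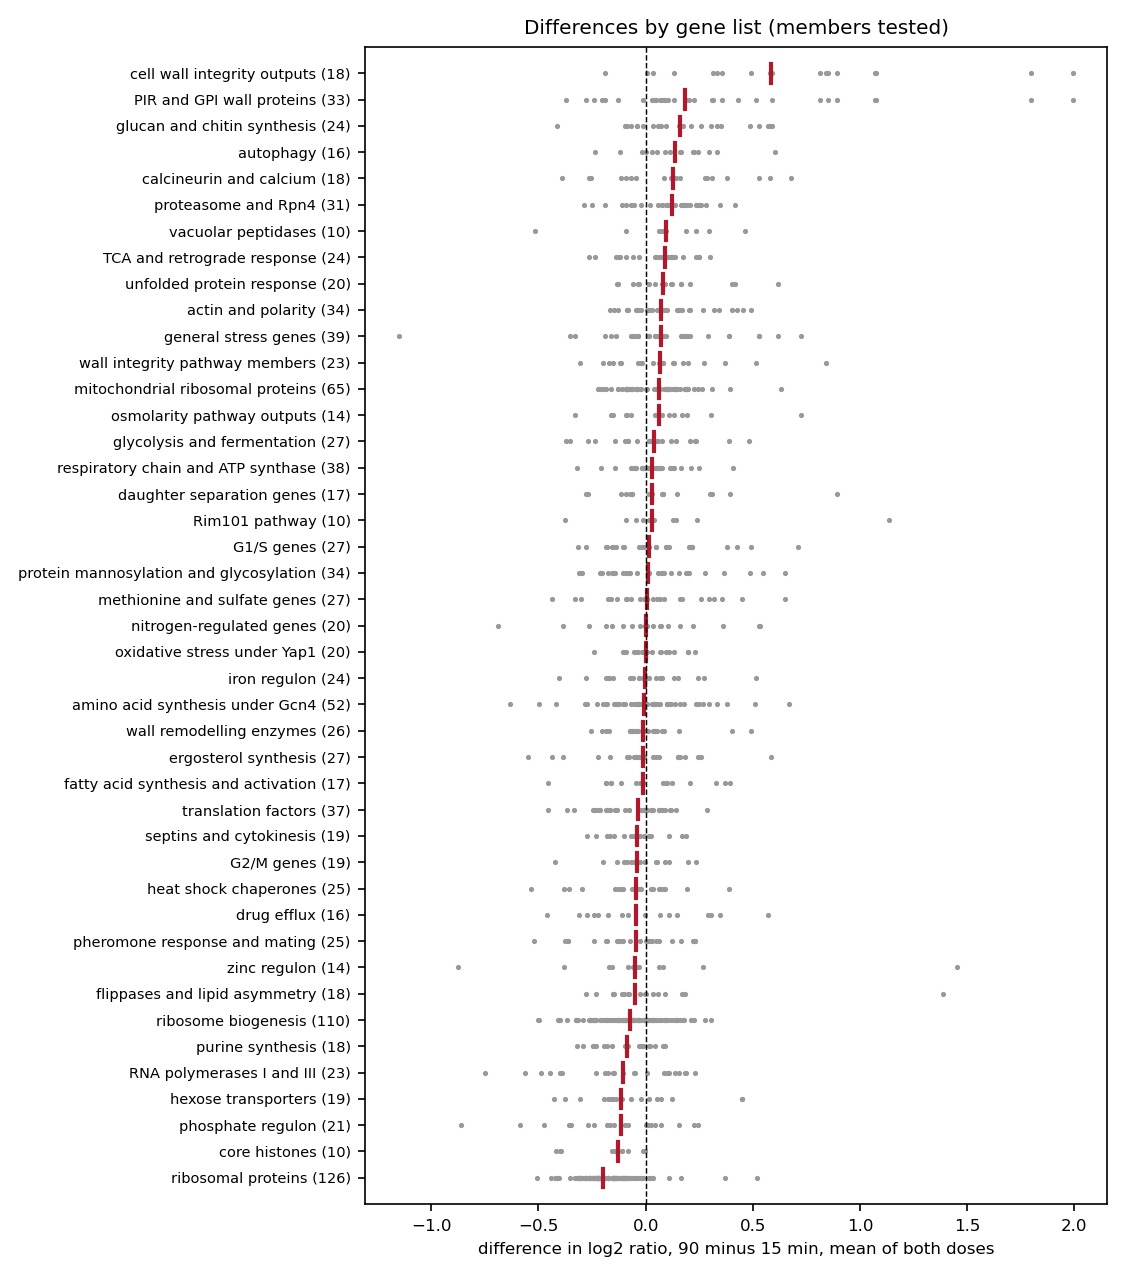
Difference in log2 ratio, 90 minus 15 min (horizontal axis), for the tested members of 43 gene lists, with the number tested in brackets. Grey dots are genes, red bars list medians and the dashed line the median of all genes; medians run between 0.584 for the wall integrity outputs and −0.198 for ribosomal proteins.

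Outside the wall, DNF2 (YDR093W), a flippase that moves phospholipids inward across the plasma membrane, had the third largest difference of the genes called. It stood at 1.83 and 1.61 at 0.02 mg/ml and 1.96 and 1.203 at 0.1 mg/ml after 90 min, and at 0.59 and 0.10, and 0.51 and −0.16, after 15 min. All 90 min values were above all 15 min values, and the difference was 1.39 ± 0.23 (adjusted p = 0.00489). The other 17 tested genes of flippases and lipid asymmetry did not pass. Its close relative DNF1 had 0.03 ± 0.14 and LEM3, the partner subunit of both, −0.15 ± 0.31.

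CRG1 (YHR209W), a methyltransferase known for resistance to the drug cantharidin, had 1.15 and 1.17 at 0.02 mg/ml and 1.89 and 1.43 at 0.1 mg/ml at 90 min, against 0.10 and 0.30, and 0.23 and 0.28, at 15 min. Its 15 min values were the least scattered of the 16 genes (SD 0.09). The difference was 1.18 ± 0.16 (adjusted p = 0.000555). YNL058C, a gene without an assigned function, had 1.58 and 0.66, and 1.72 and 0.82, at 90 min, against −0.11 and −0.19, and 0.63 and −0.01, at 15 min (difference 1.12 ± 0.14, adjusted p = 0.000385). Its 2 spots differed by 1.78 on the 0.02 mg/ml, 15 min array of replicate 1, where the next largest such gap among the 16 genes on any array was 0.553. Without that array its difference was 1.01 (adjusted p = 0.0037 in limma).

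SRL3 (YKR091W), a relative of the cell cycle inhibitor Whi5, had a difference of 0.98 ± 0.17 (adjusted p = 0.00719), with 0.79, 0.79, 1.43 and 1.19 at 90 min and 0.23, −0.20, 0.19 and 0.04 at 15 min. PPZ1 (YML016C), a protein phosphatase with roles in salt tolerance and wall integrity, had 0.95 ± 0.19 (adjusted p = 0.025). In both genes each 90 min array was above each 15 min array.

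YMR315W, an oxidoreductase gene, had 0.46, 0.62, 0.92 and 0.65 at 90 min and −0.07, −0.04, 0.14 and 0.06 at 15 min (0.64 ± 0.10, adjusted p = 0.00294). PRX1, the mitochondrial peroxiredoxin, had −0.03, 0.59, 0.25 and 0.84 at 90 min and −0.35, 0.22, −0.54 and 0.20 at 15 min (0.53 ± 0.10, adjusted p = 0.0195). PRX1 values of the 2 times overlapped, and each replicate 2 array was higher than the replicate 1 array of its dose and time. ERG9, squalene synthase at the entry to sterol synthesis, had 0.58 ± 0.13 (adjusted p = 0.0474), and its times overlapped as well.

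The remaining genes called were TFC4, a subunit of the RNA polymerase III factor TFIIIC (0.86 ± 0.17), FPR2, a prolyl isomerase of the endoplasmic reticulum (0.62 ± 0.12), the riboflavin transporter gene MCH5 (0.61 ± 0.12) and SKG1 (0.46 ± 0.09), a membrane protein gene with a role in wall composition. Their adjusted p values in limma were 0.025, 0.025, 0.0214 and 0.025. SKG1 was the lowest of the 16 and was named after its values were seen. In these 4 genes the 90 min arrays lay above the 15 min arrays without overlap.

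No gene passed as lower at 90 min with the main settings. The 5 genes with a negative difference and the smallest p were GIS2, an RNA-binding protein of translation (−0.40 ± 0.10), YOL014W (−1.38 ± 0.34), the alpha-factor gene MF(ALPHA)2 (−0.52 ± 0.13), YRO2, a membrane protein related to Hsp30 (−0.88 ± 0.23), and NIP7, a 60S subunit assembly factor (−0.50 ± 0.13). Their adjusted p values in limma lay between 0.101 and 0.14. YOL014W stood at −0.35, −1.21, −0.83 and −1.92 at 90 min and at 0.85, −0.13, 0.65 and −0.13 at 15 min, with no overlap. It passed in limma with arrays scaled to the same spread (−1.49, adjusted p = 0.0186) and with array weights (adjusted p = 0.00319). With only the 12 congo red or the 8 compared arrays it passed too (adjusted p = 0.000342 and 0.00243 in limma). In the other alternatives YOL014W did not pass. GIS2 and YRO2 passed in limma with arrays scaled to the same spread (adjusted p = 0.0401 and 0.0355). With array weights GIS2, YRO2 and MF(ALPHA)2 passed (adjusted p = 0.00593, 0.0217 and 0.00522 in limma). HSP30, a stress protein that restrains the plasma membrane proton pump, was at −0.54, −0.40, −1.09 and −0.67 at 90 min and at 0.63, 0.46, 0.42 and 0.40 at 15 min (−1.15 ± 0.32, adjusted p = 0.167). HSP30 and YOL014W were the 2 genes with a difference below −1, where 13 genes had one above 1.

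Ribosomal protein genes leaned lower as a list without any member passing. Of 126 tested, 0 were higher, 0 were lower and 126 did not pass. A negative difference was found for 118, against 2633 of all 5303 genes tested. In 75 of the 126, or 59.5%, all 4 matched differences were negative, against 11.1% of all genes. A negative difference at an unadjusted p under 0.05 was found for 21 (16.7%, against 2.17% of all genes tested). Their median difference was −0.20. The list median on the 90 min arrays was 0.17 and −0.51 at 0.02 mg/ml and 0.12 and −0.46 at 0.1 mg/ml, against 0.30 and −0.23, and 0.27 and −0.28, on the 15 min arrays. The sign of these medians followed the dye orientation at both times, and the lower 90 min value appeared within each orientation. Many of these genes have near-identical paralogs, so values of single members are uncertain.

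Other genes of growth had small negative medians with 0 members called. Ribosome biogenesis had a median of −0.07 over 110 genes. RNA polymerases I and III had −0.11 over 23, with RPA135 at −0.75 ± 0.34 and RPA49 at −0.45 ± 0.13. The core histone list, which also holds the linker histone gene HHO1 and the variant gene HTZ1, had −0.13 over 10. All 10 histone differences were negative, against 2633 of 5303 genes. In 4 of 10 (40%, against 11.1% of all genes tested) they were negative in 4 of 4 matched differences. The times did not overlap in 0 of 10, where 1.73% of all genes had every 90 min array below every 15 min array. HTB2 was the lowest at −0.42 ± 0.15. HTB2 had 0.23 and −1.08, and 0.39 and −1.33, at 90 min and 0.57 and −0.63, and 0.52 and −0.58, at 15 min. The phosphate regulon had a median of −0.12 over 21 genes. Its lowest values belonged to the secreted acid phosphatase genes PHO11 (−0.86 ± 0.34), PHO12 (−0.59 ± 0.23) and PHO3 (−0.47 ± 0.22), which share sequence and may share signal.

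Small positive medians were found for autophagy (0.14 over 16 genes), calcineurin and calcium genes (0.13 over 18) and the proteasome (0.12 over 31), each with 0 members called. YPK9, a vacuolar membrane ATPase gene on the calcium list, had 0.69, 0.92, 0.58 and 0.73 at 90 min and 0.10, 0.09, 0.02 and −0.01 at 15 min (0.68 ± 0.17, adjusted p = 0.127). The calcineurin targets PMC1 and ENA1 had 0.08 ± 0.21 and −0.09 ± 0.22, and the transcription factor gene CRZ1 −0.25 ± 0.39. Among 39 general stress genes 1 was higher (PRX1), 0 were lower, 38 did not pass and the median was 0.07. Heat shock chaperones had a median of −0.04 over 25 genes, with 0 called.

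Single genes stood out in lists that otherwise centred on 0. YKE4, a zinc transporter gene, averaged 1.57 at 90 min and 0.12 at 15 min, with 15 min values of −0.65, 1.66, −1.43 and 0.92 that spread over both signs (1.45 ± 0.39, adjusted p = 0.155). RIM21, the pH sensor of the Rim101 pathway, had 0.69, 1.478, 1.18 and 2.08 at 90 min and 0.43, 0.40, −0.11 and 0.15 at 15 min (1.14 ± 0.34, adjusted p = 0.272). Of 43 lists, 7 had a member past the threshold.

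The dose comparison asked whether the time difference depended on how much dye was given. At 0.1 mg/ml, 4 of 5350 genes were higher and 0 lower (0.0748%): PIR3 (2.14 ± 0.31), CWP1 (1.95 ± 0.35), CRG1 (1.40 ± 0.23) and PST1 (1.04 ± 0.17). At 0.02 mg/ml, 3 of 5317 genes were higher and 0 lower (0.0564%): PIR3 (1.85 ± 0.31), YNL058C (1.27 ± 0.20) and the splicing factor gene ISY1 (0.74 ± 0.14). At an unadjusted p under 0.05 there were 242 and 157 genes. The PIR3 call at 0.1 mg/ml was lost without the 15 min array of replicate 2 (1.79, adjusted p = 0.0882), and that of CWP1 was lost without any of the 4 arrays of the dose (1.87 to 2.04). CRG1 passed at this dose only without the 90 min array of replicate 2, and PST1 without that array or the 15 min array of replicate 1. At 0.02 mg/ml PIR3 passed only without the 15 min array of replicate 1, YNL058C only without either replicate 2 array and ISY1 lost its call without any of the 4.

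Of the 16 genes called over both doses, 13 had the larger difference at 0.1 mg/ml. The share among all genes was not counted, so this number has no baseline. At 90 min the spread across genes was 0.279 and 0.391 on the 0.1 mg/ml arrays and 0.272 and 0.322 on the 0.02 mg/ml arrays. The part of spread in the count of 13 was not tested. A test of the dose by time interaction called 0 of 5303 genes (0% called), with 56 at an unadjusted p under 0.05, and for each of the 16 genes its 95% interval covered 0. For PIR3 the difference between doses was 0.28 (−0.63 to 1.19), for CWP1 0.31 (−0.72 to 1.35), for DNF2 0.03 (−0.94 to 0.996) and for CRG1 0.45 (−0.22 to 1.11). These intervals are wide, and missing the threshold is no evidence that the doses had equal effects.

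The smallest interaction p values belonged to ARE2, ISY1, PFK27, RIM9 and POL2, all with an adjusted p of 0.9999 in limma. ISY1 had 0.66 and 0.83 at 0.02 mg/ml and 0.24 and 0.19 at 0.1 mg/ml after 90 min, against −0.11 and 0.12, and 0.28 and 0.10, after 15 min, so its time difference was 0.74 at the lower dose and 0.03 at the higher. RIM9, a membrane protein of the Rim101 pathway, had matched differences of −0.04 and −0.01 at 0.02 mg/ml and −0.70 and −0.75 at 0.1 mg/ml. POL2, the catalytic subunit of DNA polymerase epsilon, had −0.01 and −0.19 at 0.02 mg/ml after 90 min, against −1.92 and −1.34 after 15 min, while its 4 values at 0.1 mg/ml ran between −0.01 and 0.28.

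**Figure D3:**
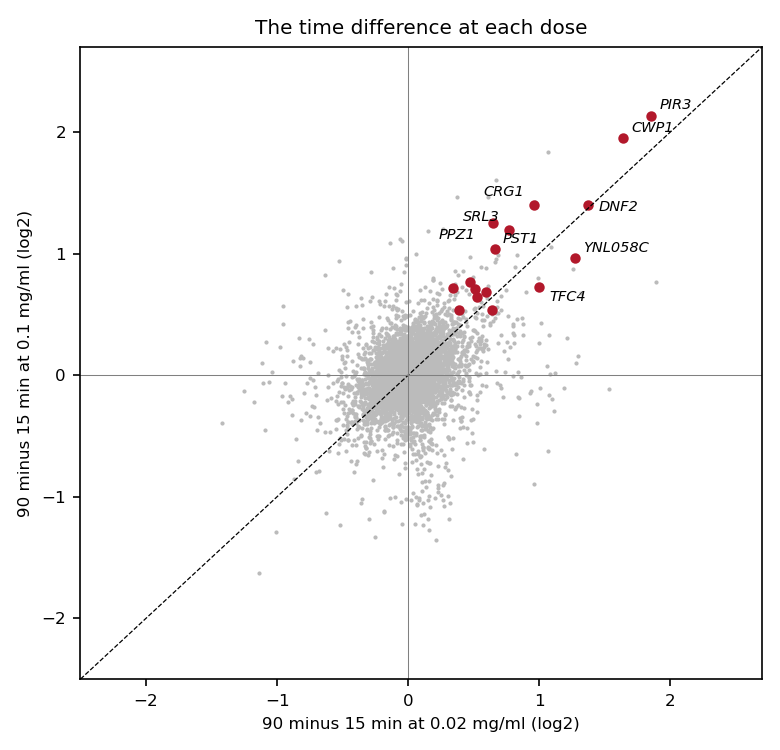
Difference in log2 ratio, 90 minus 15 min, at 0.1 mg/ml (vertical axis) against 0.02 mg/ml (horizontal axis) for 5303 genes, with the 16 genes past the threshold in red and the diagonal dashed. Of the 16 red points, 13 lie above the diagonal, and the share of all genes above it was not counted. A grey group near 0 at 0.02 mg/ml and −1 at 0.1 mg/ml holds no gene past the threshold.

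The 5 min arrays of the same drug place the difference within the time course. PIR3 averaged −0.11 at 5 min (−0.26 to 0.05 over 4 arrays), 0.33 at 15 min and 2.33 at 90 min. CWP1 averaged −0.01, 0.48 and 2.27 at these times, DNF2 −0.10, 0.26 and 1.65, and CRG1 0.10, 0.23 and 1.41. The 90 min arrays compared with the 5 min arrays gave 58 higher (1.1%) and 7 lower (0.132%) of 5289 genes, 1.23% in all, including 15 of the 16 genes. Both comparisons use the same 90 min arrays, so the second is no separate evidence. The exception was MCH5 (0.46, adjusted p = 0.0643 in limma), which averaged 0.15 at 5 min. YRO2 averaged −0.53 at 5 min, 0.50 at 15 min and −0.38 at 90 min. Its 90 minus 15 min difference did not pass and depended on single 15 min arrays of 0.02 mg/ml. It was −0.565 without replicate 1 of that condition and −1.2 without replicate 2.

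**Figure D4:**
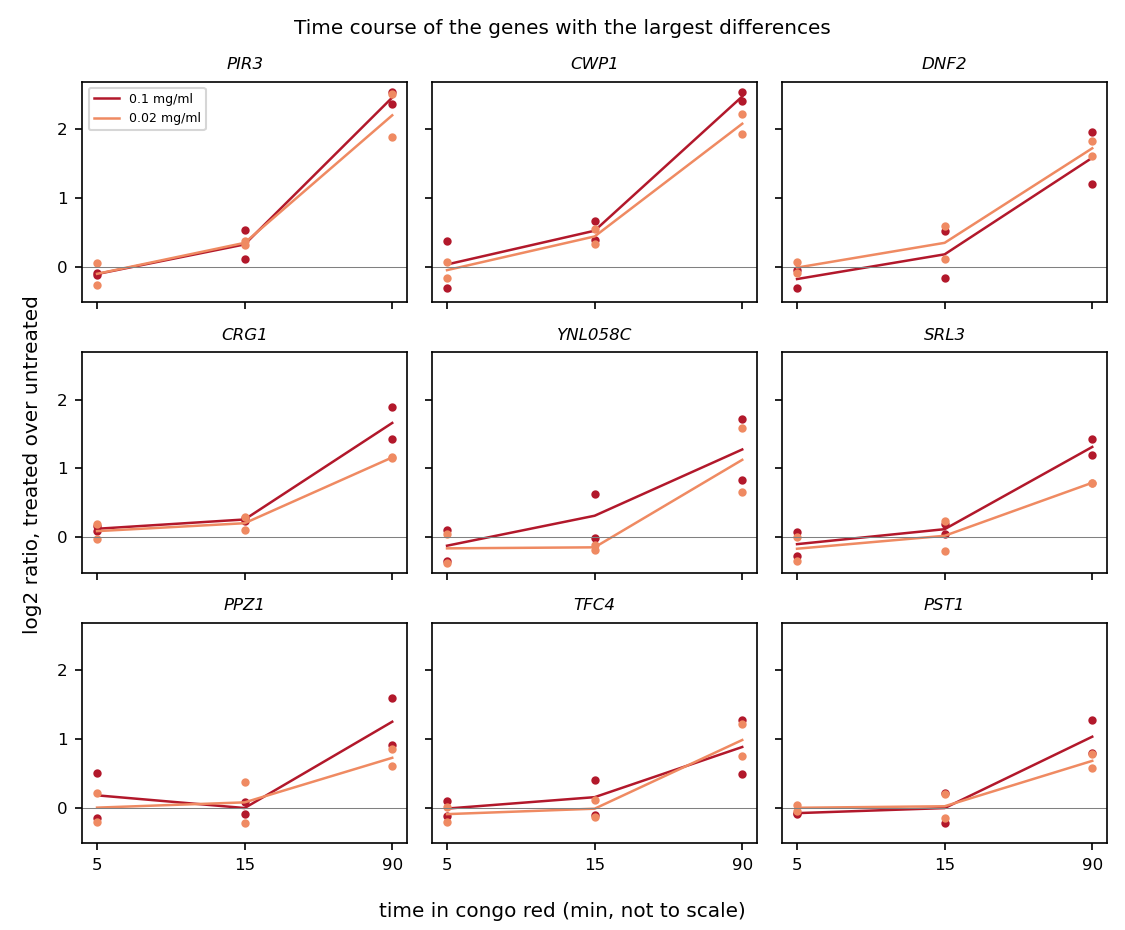
Log2 ratio of treated over untreated cells (vertical axis) at 5, 15 and 90 min of congo red (horizontal axis, not to scale) for the 9 genes with the largest differences among those called. Points are arrays and lines the mean of 2 arrays at 0.1 mg/ml (dark) and 0.02 mg/ml (light); in each panel both lines are highest at 90 min.

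Calcofluor white, a stilbene dye that also binds wall chitin, was given at the same doses and times, so the time difference could be compared between the drugs. On all 4 calcofluor white arrays of 15 min a part of the labels departs from the title, the description on 2 and a channel on 2, and the titles were followed. Of the 16 genes, 15 could be tested for a difference between drugs and 0 passed, and for 12 the 95% interval covered 0. PIR3 rose by 1.99 with congo red and had a mean matched difference of 1.95 with calcofluor white, a difference of 0.04 (−0.60 to 0.68). For CWP1 the means were 1.80 with congo red and 1.26 with calcofluor white (difference 0.53, −0.19 to 1.26), for DNF2 1.39 and 1.27 (0.12, −0.56 to 0.80) and for CRG1 1.18 and 1.39 (−0.21, −0.68 to 0.26). Here too, missing the threshold is no evidence of equal effects. The 3 genes whose interval did not cover 0 were YNL058C (0.55, 0.13 to 0.97), YMR315W (−0.33, −0.63 to −0.03) and ERG9 (−0.40, −0.77 to −0.03), each with an adjusted p = 0.823 in limma.

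Of 4368 genes tested for this difference between drugs, 1 passed and was lower with congo red (0.0229%), and 256 had an unadjusted p under 0.05. It was HSP12 (YFL014W), a small protein that protects membranes under stress. With congo red it had 0.76, 0.57, 0.99 and 0.59 at 90 min and 0.00, 0.21, −0.24 and 0.04 at 15 min. With calcofluor white it had 2.06, 3.26, 2.11 and 2.14 at 90 min and −0.11, 0.20, −0.21 and 0.25 at 15 min. At 15 min the drugs overlapped, and at 90 min every congo red array lay below every calcofluor white array. The spread across genes at 90 min was 0.27 to 0.39 on the congo red arrays and 0.35 to 0.47 on the calcofluor white arrays. Named spots at a repeated floor value made up 1.6% to 4.9% and 7.1% to 16.1% of these arrays. The time difference was 0.72 with congo red and 2.36 with calcofluor white, a difference of −1.63 (−2.15 to −1.11, adjusted p = 0.00741). It did not pass with arrays scaled to the same spread (−1.07, adjusted p = 0.981), without the replicate block (adjusted p = 0.167) or without replicate 2 (−1.25, adjusted p = 0.0832). The carbonic anhydrase gene NCE103 came next in p (−1.26, −1.88 to −0.65, adjusted p = 0.623), then TFC6 (−0.56, adjusted p = 0.623 in limma). After them SAM1 (0.98) and RPS6A (0.54) had differences of the other sign, each with an adjusted p = 0.791 in limma. Their time differences were −0.03 and −0.15 with congo red and −1.01 and −0.69 with calcofluor white.

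**Figure D5:**
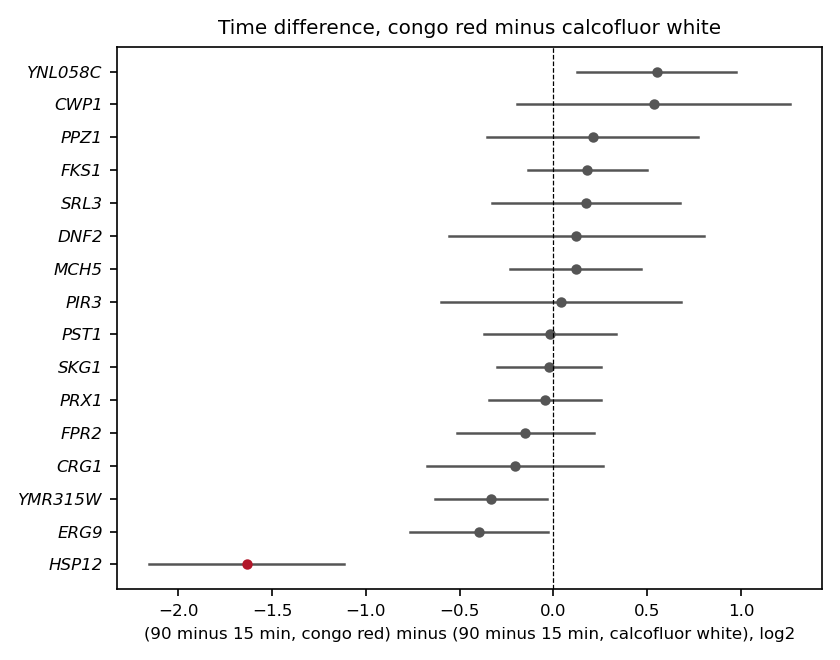
Difference between congo red and calcofluor white in the 90 minus 15 min log2 difference (horizontal axis) for HSP12 and for the 15 of the 16 genes that could be tested, with 95% intervals. HSP12 lies at −1.63, and 12 of the other 15 intervals cover 0.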

How the data were processed

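Ratios of 2-colour arrays were used as the authors deposited them. Per the values themselves, the deposited ratios are natural log values with a mean of 0 on each array. The labels do not state the scanner, the background correction or the normalization. All 11872 named spots of 15488 were matched to a RefSeq gene table by gene identifier, giving 5713 genes, 5670 of them with 2 spots. A value repeated on each array (1.61% to 5.32% of named spots on the 8 arrays) was taken as a floor and set to missing. Division by 0.693 gave log2 values, which were averaged over spots and centred on the array median, with python 3.11.15, numpy 2.4.6 and pandas 2.3.3.

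The model (limma 3.58.1, R 4.3.3) had 18 conditions plus dye orientation, which doubles as the replicate block, over the 36 arrays, for genes with a value on at least 24 arrays and on all arrays compared. The block was kept because same-numbered arrays deviated together: in 153 of 153 condition pairs the correlation was over 0.1 (0.114 to 0.826). Benjamini-Hochberg adjustment ran over all genes tested in a comparison, at 0.05. Alternatives were the block, centring, spread, array weights, the arrays fitted, floored spots, missing values and leaving out arrays. The procedure was tested on simulated data.

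Genes named were the 15 highest called genes with 1 sign in all 4 matched differences, the 5 lowest by p where none passed, up to 4 per list by p (for several lists none), and the 5 smallest p of each interaction. Further list members are named to show a list's range. The comparison and the gene lists were chosen with earlier results of these data known.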

Additional observations from a re-analysis of the deposited data

Results flagged for a closer look

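The 90 minus 15 min difference of HSP12 was smaller with congo red than with calcofluor white by 1.63 on the log2 scale (interaction −1.63, adjusted p = 0.00741 in limma). All 4 matched differences were positive with each drug. It was the only gene of 4368 past the threshold of that test, and it did not pass with arrays scaled to the same spread (adjusted p = 0.981). Before scaling, the spread at 90 min was 0.35 to 0.47 with calcofluor white and 0.27 to 0.39 with congo red. Part of the labels of all 4 calcofluor white arrays of 15 min departs from their titles, and the part this has in the difference was not tested.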

How the results depend on the processing

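The count of 16 genes became 6 when the replicate block was dropped and 33 with arrays scaled to the same spread. With only the 12 congo red arrays it was 26 (24 higher, 2 lower) and with the 8 compared arrays 41 (37 higher, 4 lower). With array weights it was 91 (70 higher, 21 lower). Without 1 replicate or 1 array it ran between 2 and 17. The count of 3 genes at 0.02 mg/ml became 0 without the block (70 at an unadjusted p under 0.05). It was 1 uncentred, which was among the 3, and 1 with the 8 arrays, which was not. With array weights it was 40, with all 3 among them. The 4 genes at 0.1 mg/ml became 7 scaled, 13 with the 12 arrays, 14 with the 8, 13 with array weights and 11 over genes on all 36 arrays, and 4 to 10 with arrays left out. The dose by time interaction gave 0 to 4. The drug by time count of 1 became 0 without the block and 0 scaled (71 and 179 at an unadjusted p under 0.05), and 1 to 29 without a replicate. The 90 minus 5 min count of 65 became 15 without the block, 128 scaled and 9 to 38 without a replicate. Array weights were estimated per condition and gave the 90 min, 0.02 mg/ml arrays the highest weight of the series, 2.14. The causes of these changes were not tested. Over 29 gene results and 479 alternative values, 320 kept direction and side of the threshold, 148 lost it, 11 gained it and 0 reversed. PIR3 passed in all 18 alternatives for the mean of both doses.

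With a replicate number left out, lone arrays were assumed to vary like the others.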

Other observations

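The plot of the 2 doses shows a group of genes that were lower at 90 than at 15 min at 0.1 mg/ml but not at 0.02 mg/ml. It was bounded after its values were seen, as a difference below −0.8 at 0.1 mg/ml and between −0.1 and 0.5 at 0.02 mg/ml. This gave 44 of 5303 genes, 26 of them known here by a systematic name only. The bounds set the size of the differences below, which describe the group and add no support. Whether these genes share sequence and signal was not tested. Their median matched differences were −1.12 and −0.97 at 0.1 mg/ml (replicates 1 and 2) and 0.14 in both replicates at 0.02 mg/ml. The medians at 0.1 mg/ml were −0.25 and −1.47 at 90 min and 0.82 and −0.49 at 15 min, so the 2 dye orientations differed by more than 1 at both times. At 0.02 mg/ml they were 0.16 and −0.20 at 90 min and 0.04 and −0.36 at 15 min. None of the 44 genes passed at 0.1 mg/ml or over both doses in limma.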
